A study of Mus musculus with 5 samples.

Results

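Hmga1, Hmga2, Igf2bp1, Igf2bp2, Igf2bp3 and Lin28b are 6 genes of a program that is active in fetal and early postnatal growth. They were followed here while mouse embryonic fibroblasts (MEFs) were grown in 5C medium. This serum-free medium holds, among others, insulin, basic fibroblast growth factor, leukemia inhibitory factor and vitamin C. The study reports that it converts MEFs into neuron-like, TuJ+ cells that are not fully functional neurons, beside shrunken and MEF-like cells. The set was chosen by the level of Hmga2, which had fallen strongly by day 14, so the values of Hmga2 on that day are a description and support nothing. The genes were found by symbol among the 27729 genes of the deposited tables. A minimum of 10 expected counts in at least 1 library was reached by 13346 of all genes, called the genes kept, and by 5 of the 6, all but Lin28b. Series of 5 values below follow the order of the libraries, days 0, 2, 5, 10 and 14, and series of 4 changes the order of days 2, 5, 10 and 14.

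Total RNA was sequenced from 5 libraries of ICR strain MEFs, 1 library per time point. The day 0 library came from MEFs before the change of medium, and the day 2, day 5, day 10 and day 14 libraries came from MEFs kept in 5C medium for that time. No library of MEFs kept in serum for as long was analysed here. The labels call the medium 6C, and the treatment text beside the last library names a later day than its own label. Per the study's methods the MEFs came from embryos without head and internal organs, and loosely attached cells were washed off before the culture. The number of embryos behind a library is not given in the sources used here. With 1 library per time point no difference has a replicate check, no test was possible, and all 95% intervals cover counting error only. The intervals treat each read as independent, and without molecular identifiers repeat copies of a molecule were not told apart.

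HMGA proteins bind AT-rich DNA and bend it, which lets other proteins assemble on chromatin, and they are abundant in embryonic, dividing cells and scarce in most adult tissues. IGF2BP proteins bind messenger RNAs, among them that of Igf2, and influence their stability, transport and translation. LIN28B blocks the maturation of let-7 microRNAs, and let-7 microRNAs in turn repress Hmga2, the Igf2bp genes and Lin28b through their 3′ UTRs, so that these genes are high in fetal cells where let-7 is scarce. A microRNA finds its targets mainly through its seed, bases 2 to 8.

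The 3′ UTRs of all 6 genes hold letters complementary to the let-7 seed, and the sequences are shown because the 6 genes have this feature in common. The choice by level did not use the sequences. Repression of Hmga2, the Igf2bp genes and Lin28b by let-7 was known beforehand, so the matches describe the set and support nothing. All 9 mature let-7 and miR-98 microRNAs from the 5′ arm in RefSeq (GRCm38.p6) share 1 seed, GAGGUAG, in capitals in let-7a, which lies at chr13:48538239-48538260 on the minus strand. In the 24-base windows the capitals mark CTACCTC, its match on the strand of the transcript. Hmga2 is shown with its 4 matches, Igf2bp1 with those of its 4 that are followed by an A, and the others with the first match. Windows were read from the longest 3′ UTR that GENCODE M21 (GRCm38) annotates among the transcripts of the deposited tables.
mmu-let-7a-5p: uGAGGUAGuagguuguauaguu
Hmga2, chr10:120364224-120364247, minus strand: cgccgacattcaatttCTACCTCa
Hmga2, chr10:120362987-120363010, minus strand: tccccactcctcaataCTACCTCt
Hmga2, chr10:120362549-120362572, minus strand: cctgatttgcaaggaaCTACCTCc
Hmga2, chr10:120361691-120361714, minus strand: caatcaaaacacactaCTACCTCt
Igf2bp1, chr11:95961778-95961801, minus strand: tgctgtgcgaagtaaaCTACCTCa
Igf2bp1, chr11:95959357-95959380, minus strand: ccagcagtgctattaaCTACCTCa
Igf2bp1, chr11:95958763-95958786, minus strand: agtataaatggatgaaCTACCTCa
Igf2bp2, chr16:22059473-22059496, minus strand: aacacacaaataaaagCTACCTCa
Igf2bp3, chr6:49086787-49086810, minus strand: gtgcatttttactcaaCTACCTCa
Lin28b, chr10:45381022-45381045, minus strand: cacccgggcgggaagtCTACCTCa
Hmga1, chr17:27563276-27563299, plus strand: ctcctctgttcacaaaCTACCTCt

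The 6 genes fell into a group with 4 matches each, Hmga2, Igf2bp1 and Lin28b, and a group with 1 match each, Hmga1, Igf2bp2 and Igf2bp3. Of the 12641 genes kept that have an annotated 3′ UTR, 10.5% held 1 or more matches and 10 genes, or 0.0791%, held 4 or more, Hmga2 and Igf2bp1 among them. Longer 3′ UTRs have room for more matches. The 3′ UTR was 3014 bases long for Hmga2, 6337 for Igf2bp1 and 4445 for Lin28b, and 24.1% of the genes in the quintile with the longest 3′ UTRs, which includes Hmga2 and Igf2bp1, held a match, while 0.316% held 4 or more. The longer match CTACCTCA, which overlaps the first by construction, stood in 3.73% of genes and in all members but Hmga1, with 3 copies in Igf2bp1 and 1 in each of the others. A match of letters is no evidence of binding, and no microRNA was measured here.

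The libraries held between 2253748 expected counts on day 2 and 3890334 on day 0, so that 3 counts stood for between 0.771 and 1.33 in every 1000000. Expected counts are RSEM's estimates of the reads from each gene. Normalized counts below are expected counts divided by library sizes from edgeR's TMM method and brought to a common scale, and changes are log2 ratios of normalized counts with a pseudocount of 1. Genes over 2-fold from day 0 were counted as a rule of size, not as a test. The 10 most abundant genes held between 6.30% and 14.2% of the counts, with Gm42418 alone at 4.79% on day 2. Fibroblast markers were present throughout, with a summed normalized count of 24778 on day 0 and 41700 on day 14 over 8 genes. Most of that sum came from Col1a1 and Col1a2, at 13963 and 7548 on day 0 and 22717 and 14138 on day 14. The median change of the 8 genes on day 14 was −0.01. Of the defining neuron markers, Rbfox3 had no count in any library and Dcx had none from day 2 on. Tubb3, the antigen of TuJ, had a normalized count of 22.1 at the start and 161 at the end. Map2 went from 196 to 45.6 and Stmn2 from 448 to 163, and by TPM they changed by −1.30 and −0.58. Of the 5 neuron markers kept, 2 were over 2-fold above day 0 on day 14 and 3 below, beside 24.5% and 19.9% of all genes kept. In bulk RNA, fewer cells of a type and less RNA per cell cannot be told apart.

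Hmga2 (ENSMUSG00000056758, chr10:120361275-120476469, minus strand) had normalized counts of 2496, 4208, 1382, 233 and 145 over the 5 libraries. It was highest on day 2 and lowest on day 14, and no interval overlapped that of another day. Against day 0 its log2 changes were 0.75 (95% interval 0.67 to 0.84), −0.85 (−0.94 to −0.76), −3.41 (−3.59 to −3.25) and −4.10 (−4.35 to −3.88). The day 14 level was 17.2-fold lower than that of day 0, and 103 of the 13346 genes kept had a lower change on that day. The larger step lay between day 5 and day 10, at −2.56 (−2.74 to −2.39), with a further −0.69 (−0.97 to −0.41) to day 14. Per length, Hmga2 went from 237 TPM on day 0, in percentile 95.2 of the genes kept, to 25.2 TPM on day 14, in percentile 55.0, so that the RNA of this chromatin protein was still detected at the end.

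Hmga1 (ENSMUSG00000046711, chr17:27556497-27563674, plus strand), the other HMGA gene and the most abundant of the 6 per length, followed Hmga2 up to day 10 and then parted from it. Its normalized counts were 4727, 7709.5, 2934, 348 and 825. The lowest level was that of day 10, and day 14 lay above it. Against day 0 its log2 changes were 0.71 (0.65 to 0.77), −0.69 (−0.75 to −0.62), −3.76 (−3.90 to −3.63) and −2.52 (−2.62 to −2.42). The step from day 5 to day 10 was −3.07 (−3.22 to −2.94), or 8.41-fold lower, and 44 of 13346 genes kept had a lower change over the same step. From day 10 to day 14 Hmga1 was 2.37-fold higher, a log2 change of 1.24 (1.09 to 1.41), while Hmga2 was lower. At 1040.5 TPM on day 0 and 362 TPM on day 14, Hmga1 stayed in percentile 92.6 or above of the genes kept on all 5 days.

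**Figure D1:**
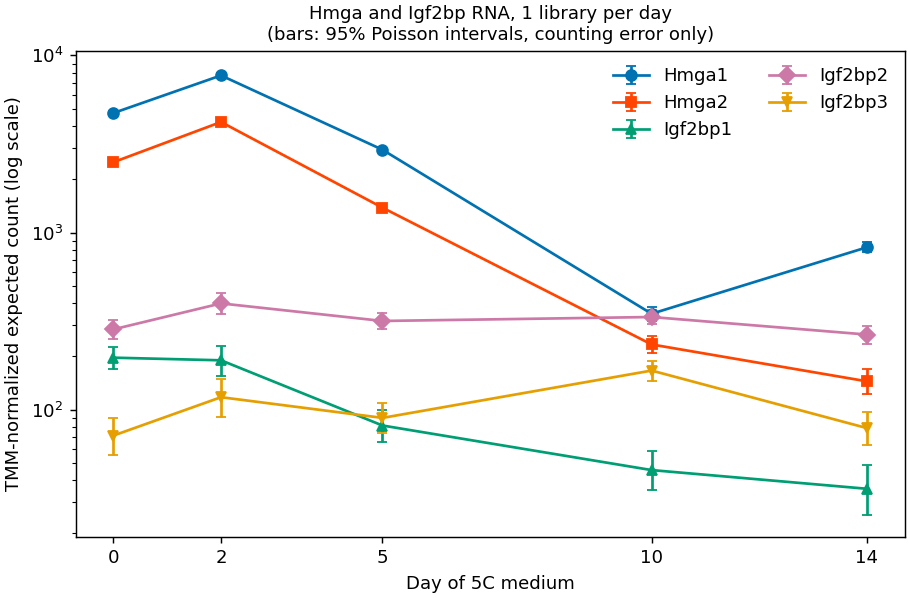
TMM-normalized expected counts (log axis) of the 5 detected genes against day of 5C medium, 1 library per day, with bars for 95% Poisson intervals of counting error. Hmga1 and Hmga2 start at 4727 and 2496, are lowest at 348 on day 10 and 145 on day 14, and Igf2bp2 stays between 265 and 398.

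The ratio of the HMGA genes to each other does not depend on library scaling. Per length, Hmga1 stood above Hmga2 by TPM ratios of 4.40 (4.16 to 4.59), 4.31 (4.05 to 4.48), 5.09 (4.78 to 5.39), 3.58 (3.10 to 4.12) and 14.4 (12.1 to 17.0). The intervals of the first 2 libraries overlapped, that of day 5 lay above them, and that of day 10 lay below day 0 and overlapped day 2. The day 14 ratio lay outside all others, and with 1 length per gene it was 13.6. Reads of Hmga1 are hard to tell from those of Hmga1b, a near-identical copy on chromosome 11, but Hmga1b held at most 3.10% of the counts of the pair, and summing both gave −2.51 on day 14. An antisense gene, AI413582, overlaps exons of Hmga1, and strand use in the counting is not given in the sources used here. Its expected counts, 244 on day 0 and 93.0 on day 10, were below the 4776 and 487 of Hmga1, but larger relative to Hmga1 on day 10.

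Igf2bp1 (ENSMUSG00000013415, chr11:95957163-96005940, minus strand), an RNA-binding protein best known from fetal tissue and the paralog with 4 matches, also ended lower. Its normalized counts were 197, 190.0, 81.4, 45.6 and 35.8. The first 2 libraries overlapped in their intervals, as did the last 2, and all later libraries lay below both early ones. Against day 0 its log2 changes were −0.05 (−0.41 to 0.30), −1.26 (−1.65 to −0.91), −2.08 (−2.54 to −1.69) and −2.43 (−2.99 to −1.97). Unlike both HMGA genes, Igf2bp1 was not above its day 0 level on day 2. It rested on 40 expected counts on day 14, so its interval is wide. Its TPM values, 14.6, 6.60, 6.65, 8.02 and 3.24 from day 0 to day 14, also move with the gene length RSEM used, which lay between 4497 and 8378 bases. On the TPM scale its steps were 0.0095 from day 2 to day 5 and 0.24 from day 5 to day 10, against −1.21 and −0.82 on the TMM scale, so the direction of these steps depends on the scale. The genes that overlap exons of Igf2bp1 and Hmga2 on the opposite strand, Gm29202 and 1700006J14Rik, had at most 4.05 expected counts in a library.

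Igf2bp2 (ENSMUSG00000033581, chr16:22059009-22163299, minus strand), the paralog that many adult tissues keep, had normalized counts of 284, 398, 317, 333 and 265. On this TMM scale its level was highest on day 2, where the interval overlapped those of days 5 and 10, and the first and the last library overlapped as well. Its TPM values were 29.95, 34.88, 58.05, 79.35 and 50.36, highest on day 10, so the order of the days depends on the scale. Against day 0 its log2 changes were 0.49 (0.23 to 0.75), 0.16 (−0.07 to 0.39), 0.23 (0.02 to 0.45) and −0.10 (−0.34 to 0.14).

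Igf2bp3 (ENSMUSG00000029814, chr6:49085223-49214957, minus strand), like Igf2bp1 largely silent in adult tissues, had normalized counts of 71.4, 118, 89.8, 166 and 78.7. Day 10 stood above day 0, day 5 and day 14 with no overlap of intervals, and days 0 and 14 overlapped. Against day 0 its log2 changes were 0.71 (0.22 to 1.23), 0.33 (−0.11 to 0.79), 1.21 (0.84 to 1.63) and 0.14 (−0.32 to 0.61). While Hmga1 and Hmga2 went down between day 5 and day 10, Igf2bp3 went up by 0.88 (0.54 to 1.23), and its next step was −1.07 (−1.45 to −0.72). Malsu1, on the opposite strand, overlaps exons of Igf2bp3. Its expected counts were 150, 86, 117, 57.2 and 101, against 72, 65, 103, 233 and 88 for Igf2bp3. Malsu1 thus had the larger count except on day 10. Strand use in the counting is not given, and the part of this overlap in the values of Igf2bp3 was not tested.

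Lin28b (ENSMUSG00000063804, chr10:45376620-45486395, minus strand), the inhibitor of let-7 maturation, had 0 expected counts on days 0, 10 and 14 and 1 on days 2 and 5. It was not detectable at this depth, with 3 counts standing for a normalized count of between 2.14 and 5.43, so no change is given. Lin28a, its paralog, had fewer than 10 expected counts in every library too.

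Within the Igf2bp family the make-up moved from Igf2bp1 to its paralogs. Per length the 3 genes summed to 50.3, 49.4, 76.6, 117.6 and 65.3 TPM. Igf2bp1 held 29.0%, 13.4%, 8.68%, 6.82% and 4.96% of that sum. With 1 length per gene its share was 23.2%, 16.9%, 9.91%, 4.91% and 5.41%, lower in each library than in the one before except on day 14. Igf2bp2 was the most abundant paralog on every day, with 59.5% on day 0 and 77.1% on day 14. Igf2bp3 held its largest share, 25.7%, on day 10.

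**Figure D2:**
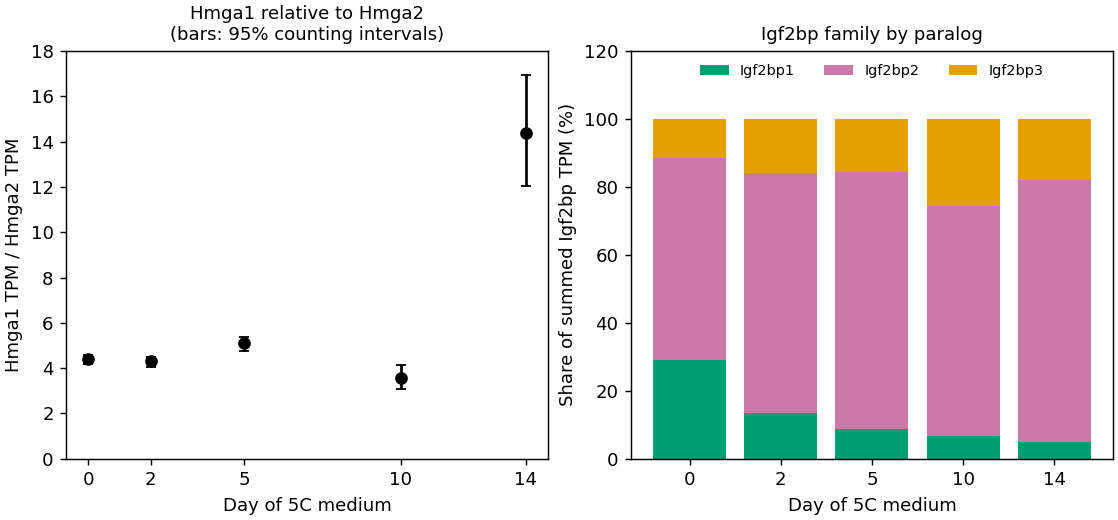
Left, the ratio of Hmga1 TPM to Hmga2 TPM by day with 95% counting intervals, which is 14.4 on day 14 and between 3.58 and 5.09 on the other days. Right, the share in percent of each paralog in the summed Igf2bp TPM, where that of Igf2bp1 goes from 29.0% on day 0 to 4.96% on day 14.

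By the 2-fold rule, none of the 5 detected genes was past the threshold on day 2, when 15.2% of all genes kept were above day 0 and 13.1% below. On day 5 none was above, beside 20.2% of all genes, and 1 was below, Igf2bp1, beside 13.6%. On day 10 Igf2bp3 was above, beside 28.7% of all genes, and Hmga1, Hmga2 and Igf2bp1 were below, beside 22.3%. On the TPM scale Igf2bp1 was not past the threshold on day 10, at −0.79, and Igf2bp2 was above with Igf2bp3, at 1.38 and 2.21, beside 52.9% of all genes above and 6.77% below. On day 14 none was above, beside 24.5% of all genes, and the same 3 genes were below, beside 19.9%. These counts of day 14 include Hmga2, for which the set was chosen, so nothing is read from them.

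Scaling matters for these values. The median change of all genes kept was 0.07 on day 14 on the TMM scale and 0.78 on the TPM scale, a shift of 0.72, after shifts of −0.17, 0.56 and 0.95 in the libraries between. On the TPM scale the day 5 change was 0.07 for Hmga1, against −0.69 on the TMM scale, and −0.14 for Hmga2, so the direction of Hmga1 on day 5 flips. Relative to the TPM median, those changes were −0.54 and −0.75. On day 10 the TPM changes were −2.54 for Hmga1 and −2.23 for Hmga2, or −3.63 and −3.32 relative to a TPM median of 1.09. On day 14, relative to the TPM median, the change was −2.31 for Hmga1, −3.97 for Hmga2, −2.66 for Igf2bp1, −0.05 for Igf2bp2 and 0.12 for Igf2bp3. Igf2bp1 on day 2 was at −1.03 on the TPM scale, when RSEM used its greatest length for the gene, against −0.05 on the TMM scale.

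Changes also moved with gene length in these libraries, and the part of this in the members' values was not tested. On day 10 the median change was −1.15 in the quintile with the shortest genes and 0.92 in that with the longest, and on day 14 it was −0.78 and 0.50. Hmga1 lay in the second shortest quintile, Hmga2 and Igf2bp2 in the second longest, and Igf2bp1 and Igf2bp3 in the longest. Less the median of its own quintile, the day 14 change was −2.40 for Hmga1, −4.43 for Hmga2 and −2.93 for Igf2bp1. The day 10 change of Igf2bp3 was 0.28 on that scale, under the 2-fold threshold.

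**Figure D3:**
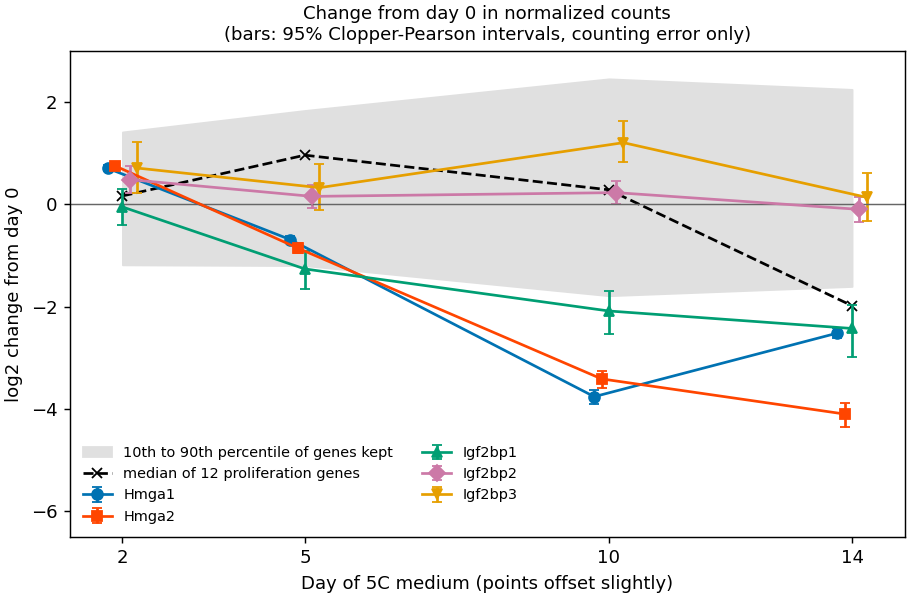
log2 change from day 0 of normalized counts on days 2, 5, 10 and 14 for the 5 detected genes, with 95% Clopper-Pearson intervals of counting error, over the 10th to 90th percentile of all genes kept (grey) and the median of 12 proliferation genes (dashed). On day 10 Hmga1 and Hmga2 lie at −3.76 and −3.41 with the proliferation median at 0.29, which is at −1.98 on day 14.

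HMGA proteins are plentiful in dividing cells, so genes of cell division are set beside them. The median changes of 12 proliferation genes were 0.17, 0.96, 0.29 and −1.98. On day 10, 1 of the 12 was over 2-fold above day 0 and 1 was below, beside 28.7% and 22.3% of all genes, and on day 14 none was above and 10 were below, beside 24.5% and 19.9%. The TPM median was 1.10 on day 10, with 6 above and 0 below, beside a median of 1.09 and 52.9% and 6.77% of all genes. On day 14 it was −0.96, with 1 above and 5 below, beside a median of 0.78 and 41.6% and 6.97%. Ccnb1, a cyclin of mitosis, had normalized counts of 60.4, 66.9, 119.9, 80.0 and 8.94. Top2a, the topoisomerase of dividing cells, had 193, 172, 374, 265 and 35.5. Cdk1 had 169, 188, 226, 98.5 and 28.6, and unlike Ccnb1 and Top2a it was below day 0 on day 10. Its day 10 change was −0.77 (−1.11 to −0.45), and 0.48 on the TPM scale.

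Markers of other cells moved over the same days, and their part in the members' values was not tested. Of all genes kept, 15.2%, 20.2%, 28.7% and 24.5% were over 2-fold above day 0 on days 2, 5, 10 and 14. Below day 0 were 13.1%, 13.6%, 22.3% and 19.9%. All 7 Schwann cell and neural crest markers were over 2-fold above day 0 on days 10 and 14, and their summed normalized counts were 111, 196, 1119, 6798 and 9668. Of the macrophage markers, 6 of 6 were above on days 2 and 5 and 5 of 6 on days 10 and 14. On the TPM scale 3, 5, 6 and 5 of the 6 were above, so the day 2 number depends on the scale. Their summed normalized counts were 197, 1670.3, 3365, 1743 and 1238. The day 2 call of Ptprc rested on an expected count of 1. Adgre1 had 8 in the same library, against 3 before the change of medium. Ptprc was at 0 on day 0. Neuron markers summed to 681, 364, 239.6, 259.9 and 381, with Snap25 also at 0 on days 0 and 2. On day 14, 2 of the 5 kept were above day 0 and 3 below. Stmn2 and Map2 held 448 and 196 of the day 0 sum. By TPM the sums were 104.2, 51.6, 60.6, 86.9 and 119.8, so the direction from day 0 to day 14 depends on the scale. By TPM 2 were above and 1 below on day 14. The 8 fibroblast markers had 2 above, Pdgfra and Dcn, and 3 below, Thy1, Prrx1 and Twist2, on day 14. By TPM, 4 were above and 1 below on that day, beside 41.6% and 6.97% of all genes.

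Genes of let-7 maturation, upstream of the members in the pathway, differed between the scales in their counts. The background for this and the following lists is the share of all genes kept on day 14, which was 24.5% above and 19.9% below on the TMM scale and 41.6% above and 6.97% below on the TPM scale, with medians of 0.07 and 0.78. Of 13 kept of 14 listed, 3 were over 2-fold above day 0 on day 14 and 1 below, and the median change was 0.17. By TPM, 5 were above and 0 below, with a median of 0.88. Tut4 and Tut7, the enzymes that add uridine to let-7 precursors bound by LIN28, went from normalized counts of 19.8 and 60.6 on day 0 to 67.9 and 192 on day 14, log2 changes of 1.73 (1.05 to 2.57) and 1.65 (1.25 to 2.11). Dis3l2, the nuclease of such precursors, was the third gene above. Tarbp2, a partner of Dicer, went from 370.1 to 129, a change of −1.52 (−1.81 to −1.24), which was −0.58 on the TPM scale. No gene of a let-7 or miR-98 precursor had a symbol of its own in the tables.

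Other reported let-7 targets went in both directions. Of 24 kept of 25, 7 were over 2-fold above day 0 on day 14 and 7 below, with a median of −0.46. The TPM values put 7 above and 4 below, with a median of 0.41. Cdc34, a ubiquitin-conjugating enzyme of the cell cycle, went from a normalized count of 1284 to 167, a change of −2.94 (−3.17 to −2.72). Thbs1, a matrix glycoprotein, changed by −3.25 (−3.35 to −3.15), most of it by day 2, when it was at 944 after 8138 on day 0. Irs2, an adaptor of the insulin receptor, was at normalized counts of 1.98 on day 0 and 15.2 on day 14, and its change of 2.44 has an interval of 0.87 to 6.10.

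Among all genes, grouped by number of matches and without the 6 members, the day 14 median was 0.06 for 11312 genes with none, 0.23 for 1152 genes with 1 and 0.03 for 172 genes with 2 or more. On day 10 the medians were 0.10, 0.40 and 0.39. Within the third of genes with the longest 3′ UTRs, they were 0.58, 0.61 and 0.47 on day 10 and 0.29, 0.30 and 0.06 on day 14. The other 8 genes with 4 or more matches lay between −4.02 for Mcf2l, an exchange factor for small GTPases, and 1.95 for Nr6a1, an orphan nuclear receptor, on day 14, most of them on few counts, with Mcf2l at 30 expected counts on day 0 and 1 on day 14.

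The 11 other high-mobility-group genes, whose proteins bind nucleosomes or DNA without the AT-hooks of HMGA, had a median of 0.20 on day 14. Of these, 1 was over 2-fold below, Hmgn1, at a change of −1.81 (−1.93 to −1.69), and −0.36 on the TPM scale, and none was above. By TPM, 6 of the 11 were above and 0 below, with a median of 1.28. Hmgb3 and Hmgxb4 were at 0.92 (0.33 to 1.57) and 1.00 (0.36 to 1.72).

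Of 8 protein partners of IGF2BP in RNA granules, 1 was above and 1 below on day 14, with a median of −0.33. The TPM values put 3 above and 1 below, with a median of 0.67. Ybx1, a cold-shock RNA-binding protein, changed by −1.66 (−1.75 to −1.57), Fmr1, a translational repressor, by 2.11 (1.82 to 2.44), and Elavl1, which stabilizes AU-rich messages, by −0.87 (−1.07 to −0.66), which was 0.01 on the TPM scale. Messages reported as IGF2BP cargo had a median of −0.34 over the 8 kept of 9. Gli1 was above, on 0 expected counts on day 0 and 18 on day 14. Below were 3, Actb at −1.56 (−1.59 to −1.53), Myc at −1.56 (−1.81 to −1.32) and Cd44 at −1.23 (−1.36 to −1.10). By TPM, none of these 3 was past the threshold, at −0.45, −0.68 and −0.33, and 2 messages were above, with a median of 0.18. Myc, the growth-promoting transcription factor, was already at a normalized count of 77.8 on day 2, after 502 on day 0.

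Of 7 genes reported to lie downstream of HMGA proteins, 2 were above and 1 below on day 14 on both scales, with a median of 0.10, or 0.94 by TPM. Ccna2, cyclin A, was at normalized counts of 97.7, 167, 169.7, 107 and 20.7, a day 14 change of −2.18 (−2.98 to −1.59). Cdkn2a, which encodes cell cycle inhibitors, was at 109, 1062, 1037, 408 and 546. The intervals of its changes on days 2 and 5, 3.27 (2.99 to 3.59) and 3.24 (2.97 to 3.55), overlapped. Junb, an AP-1 factor, was at 504 on day 0 and 1674 on day 14, a change of 1.73 (1.59 to 1.88).

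**Figure D4:**
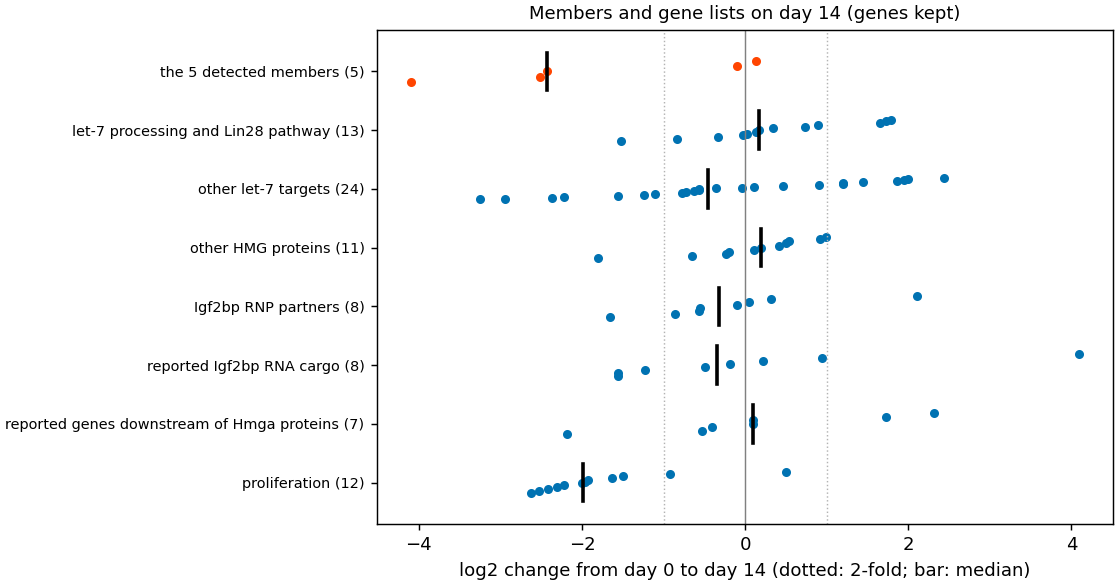
log2 change from day 0 to day 14 of the 5 detected members (orange-red) and of the kept genes of 7 lists (blue), with the number of genes in parentheses, a black bar at each median and dotted lines at 2-fold. The proliferation genes have a median of −1.98, and the other 6 lists have medians between −0.46 and 0.20 on this TMM scale.

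The genes most like each member in pattern were named by the distance between their log2 changes on days 2, 5, 10 and 14, over 8250 candidate genes that reached 100 expected counts in at least 1 library. All points share the day 0 library. Nearest to Hmga2 were Tm4sf1, a tetraspanin-like membrane protein, at a distance of 0.600, then Klhdc8a at 0.861, Ecscr at 1.08, Nipsnap1 at 1.31 and Timp1 at 1.32. Timp1, a metalloproteinase inhibitor, was also the nearest to Hmga1, at 0.655, followed by Ercc1, of nucleotide excision repair, at 0.718 and Uqcrq, of respiratory complex III, at 1.10. Igf2bp1 lay nearest to Rftn1, Timm8b and Txnl4a, with distances between 0.217 and 0.410. Igf2bp2 lay nearest to Usp3, Meis1 and Fam160a2, between 0.146 and 0.177, and Igf2bp3 to Tfdp2 at 0.316 and Trim25 at 0.317. By Pearson correlation over the 5 levels none of these genes was among the nearest except Tfdp2.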

How the data were processed

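RNA of 5 libraries, 1 per time point and mapped by their labels, was measured by RNA sequencing. Per the submitters' processing notes, Bowtie, RSEM and mm10 were used, and versions, annotation and filters are not given in the sources used here. The authors deposited expected counts, estimated by RSEM and not scaled for depth, TPM values, scaled by length to 1000000 per library, FPKM values, which were not used, and gene lengths. Identifiers of 27247 of 27729 genes matched GENCODE M21, and the others held 0.359% of counts. Counts were rounded for library sizes by TMM (edgeR 4.0.16, R 4.3.3). Intervals are exact Clopper-Pearson intervals of the ratio of rounded counts, without pseudocount, at 95%. Genes were kept where at least 1 library had 10 expected counts.

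The members and all gene lists were chosen with earlier results of these data known. Named are all members, up to 3 genes per list that reached 100 expected counts and had the greatest day 14 change in either direction, and the nearest 3 genes per member (5 for Hmga2), of which 1 gene is not reported here. Other genes named for a count were chosen after their values were seen. Matches were searched on the transcript strand only. Alternatives were DESeq2 size factors (1.42.0), TPM values, quantile normalization, plain totals, length quintiles, TMM over the libraries compared, a pseudocount of 5, a 4-fold threshold and other count minima (none or 50). Counting Hmga1 with Hmga1b and leaving out Gm42418 and Lars2 were added after seeing the data. The computations were tested on simulated data. Scripts ran in Python 3.11.15 (matplotlib 3.10.9, pandas 2.3.3, numpy 2.4.6, scipy 1.17.1).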

Additional observations from a re-analysis of the deposited data

How the results depend on the processing

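No paired analysis was possible because each time point had 1 library, and no library could be left out for the same reason. The day 14 change was −1.52 for Hmga1, −3.18 for Hmga2, −1.88 for Igf2bp1, 0.73 for Igf2bp2 and 0.91 for Igf2bp3 on the TPM scale. It was −1.93 for Hmga1 and −3.74 for Hmga2 with quantile normalization, and −2.16, −3.74 and, for Igf2bp2, 0.26 with plain library totals. Less the median of the length quintile, it was −2.40 for Hmga1, −4.43 for Hmga2, −0.43 for Igf2bp2 and −0.36 for Igf2bp3. The other 27 of 41 day 14 values moved by less than their counting interval. By TPM 1 member was over 2-fold below day 0 on day 2, beside 14% of all genes kept. On day 10, 2 were above and 2 below by TPM, beside 52.9% and 6.77%. On day 5, 0 members were below with plain totals or a 4-fold threshold, beside 1007 and 371 of the 13346 genes kept, and 2 with length quintiles. On day 10, 0 were above with length quintiles or 4-fold, beside 1850 genes at 4-fold. No count of all genes was made with length quintiles. Igf2bp1 changed by 0.0095 from day 2 to day 5 by TPM, against −1.21, and the neuron marker median on day 10 was 0.11 against −1.09. The cause of these differences was not tested. Among all genes, TPM gave 5548 above and 930 below on day 14 where TMM gave 3268 and 2657, on day 10 7057 and 904 against 3826 and 2974, on day 5 4269 and 531 against 2690 and 1821, and on day 2 1055 above against 2023. Plain totals gave 1007 below on day 5 and 1929 on day 10, and no filter gave 3529 above on day 2. A minimum of 50 gave 1203 above on day 2 and 1721 on day 5. A 4-fold threshold gave 715 above and 390 below on day 2, 1161 and 371 on day 5, 1850 and 1057 on day 10, and 1560 and 815 on day 14. Depth limits Lin28b, which was at or under 1 count, and Igf2bp1 on day 14.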

Other observations

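Of 13 other genes of fetal growth, 6 were over 2-fold above day 0 on day 10 and 2 below, beside 28.7% and 22.3% of all genes. On day 14, 4 were above and 2 below, beside 24.5% and 19.9%, with a median of 0.39 beside 0.07 over all genes. On the TPM scale 8 were above and 1 below on day 14, beside 41.6% and 6.97% of all genes, with a median of 1.24 beside 0.78. Mest, an imprinted gene of mesoderm, went from a normalized count of 62.6 to one of 2029.7 by day 14, a log2 change of 5.00 (4.66 to 5.41). Igf1, the growth factor of later growth, had 20.8 and 268, a change of 3.63 (3.05 to 4.40), and its receptor Igf1r had 158 and 33.1, a change of −2.23 (−2.82 to −1.74). Dlk1 and Peg3 were the other genes above and Grb10 the other below.

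IGF2BP proteins also read N6-methyladenosine (m6A) in RNA, and of 10 genes that write, erase or read this mark 1 was over 2-fold above day 0 on day 14 and none was below, with a median of 0.03. On the TPM scale 3 were above and 0 below, with a median of 0.70. Fto, an m6A demethylase, was at normalized counts of 152 on day 0 and 322 on day 14, a change of 1.07 (0.80 to 1.36). Wtap, a subunit of the m6A writer, was at 0.64 (0.38 to 0.91) and Ythdf1, a reader, at −0.79 (−1.06 to −0.53), which was 0.08 on the TPM scale.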
